A study of Arabidopsis thaliana with 20 samples.

Results

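Leaf senescence was compared between 5 libraries from an Arabidopsis thaliana mutant labelled as lacking both SNRK2.4 and SNRK2.10 and 5 libraries from the Col-0 wild type, all from rosette leaves collected 45 days after sowing (DAS). These 10 samples were taken by title from a series of 20, whose other 10 samples are the same genotypes at 25 DAS. Both genotypes were in the Col-0 background and grew in long days, with no treatment named. The assay was 3' RNA-seq, which primes reverse transcription on the poly(A) tail and counts fragments near the 3' end of each transcript. The labels name neither the insertion alleles nor the number of independent lines, and they do not say how many plants went into a sample. The p-values below therefore measure the spread between these samples, which may be partly technical.

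SnRK2 kinases are plant-specific protein kinases activated by osmotic stress, and one subgroup carries the core response to the hormone abscisic acid (ABA). SnRK2.4 and SnRK2.10 belong to the subgroup that osmotic stress activates independently of ABA, and they act with Raf-like kinases on the mRNA decapping machinery. As a leaf senesces, it breaks down chlorophyll and chloroplast proteins, exports the recovered nitrogen, and switches on NAC and WRKY transcription factors and hydrolases such as the cysteine protease SAG12.

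Total counts ranged from 637536 to 1223813 in the wild-type libraries and from 615317 to 1827404 in the mutant libraries. A count minimum applied by group left 11520 of 37336 listed loci for testing with edgeR's quasi-likelihood test, and calls below are at a Benjamini-Hochberg adjusted p of 0.05 over those genes. Levels are in CPM, the counts of the tested genes scaled to a common library size after TMM normalization. Values for 5 libraries are listed from replicate 1 to replicate 5, numbers whose meaning the labels do not give. Fold changes are mutant against wild type on the log2 scale (log2FC), with their standard error (SE). A count of 0 in a library is compatible with up to 3 counts, which is 1.66 to 5.11 CPM depending on the library, and this limit covers counting error only. As a check of leaf age, SAG12 summed to 2 counts in the wild type at 25 DAS and to 30928 at 45 DAS. In bulk leaf tissue, fewer cells of a type and less RNA per cell cannot be told apart.

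The genes named on the labels were low in the mutant. SNRK2.4 (AT1G10940, TAIR10.1 chromosome 1, 3655673 to 3658612, minus strand) stood at 101, 98.7, 114, 96.1 and 105 CPM in the wild type and at 1.42, 1.66, 4.3, 3.05 and 6.81 CPM in the mutant. The groups did not overlap, and the log2FC was -5.10 (SE 0.26, adjusted p 2.57e-07). SNRK2.10 (AT1G60940, chromosome 1, 22439063 to 22442221, minus strand) stood at 90.1, 101, 108, 96.1 and 88.6 CPM against 45.3, 34.3, 33.3, 43.4 and 46.0 CPM, also without overlap. It fell by 1.26 on the log2 scale (SE 0.14, adjusted p 0.00119), and counts at its 3' end remained in every mutant library. Whether the counted ends lie outside the disrupted part cannot be told from the labels. Of the SnRK2 family, 7 of 10 members were tested. SNRK2.8 was the only other member called: it rose from 36.1 ± 10.4 to 85.9 ± 8.09 CPM (SD, n = 5 each), a log2FC of 1.27 (SE 0.17, adjusted p 0.00373), with no overlap. SNRK2.2 was 441 ± 32.0 against 348 ± 27.0 CPM (adjusted p 0.134). SNRK2.3 was 128 ± 5.61 against 127 ± 14.5 CPM and SNRK2.6, the guard-cell ABA kinase OST1, 28.1 ± 7.12 against 26.3 ± 3.22 CPM, both with changes smaller than their spread. None of the 10 tested members of the Raf and decapping list passed the threshold, and none had an unadjusted p under 0.05. The calls on SNRK2.4, SNRK2.10 and SNRK2.8 held in each of the 10 fits that left out 1 library.

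In all, 393 genes changed, 3.41% of those tested: 175 were higher in the mutant (1.52%) and 218 lower (1.89%). Of these, 233 changed at least 2-fold, 89 higher and 144 lower, and in 334 the groups did not overlap. Over all tested genes 777 (6.74%) showed no overlap, 2356 (20.5%) had an unadjusted p under 0.05, and the median log2FC was -0.02. The log2FC was positive in 5525 of all tested genes and negative in 5995. The number called depended on single libraries. It was 1317 without wild-type replicate 1, 132 without replicate 2, 170 without replicate 3, 590 without replicate 4 and 365 without replicate 5. Leaving out mutant replicates 1 to 5 in turn gave 132, 82, 131, 105 and 144 calls.

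**Figure D1:**
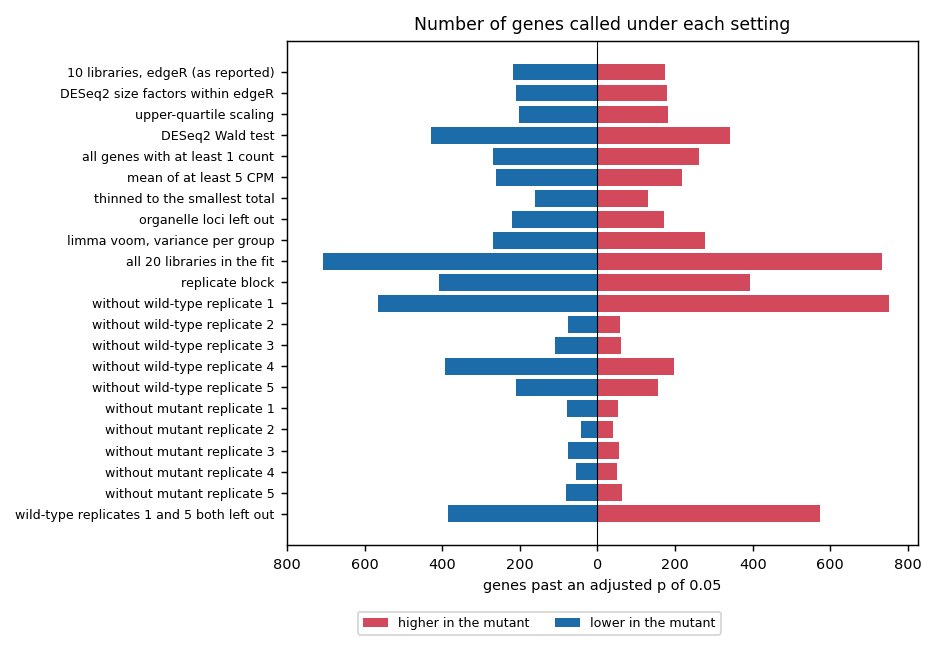
Number of genes past an adjusted p of 0.05 in each fit, with genes higher in the mutant to the right of 0 and genes lower in the mutant to the left. The fit of all 10 libraries calls 175 and 218 genes, the fit without wild-type replicate 1 calls 752 and 565, and the fit without mutant replicate 2 calls 39 and 43.

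The wild-type libraries were the more variable group. The biological coefficient of variation, which is the spread fitted on top of counting noise, stood at 29.5% in the wild type and 19.1% in the mutant. The SD of log2 CPM was larger in the wild type for 8089 of the 11520 genes (70.2%), with medians of 0.34 and 0.25. It exceeded 1 in 432 genes of the wild type and 189 of the mutant. On the first principal component, which held 39.2% of the variance, wild-type replicate 5 lay at 70.2, replicates 2, 3 and 4 at 18.3, 19.1 and 14.4, and replicate 1 at -25.8. The mutant libraries lay between -35.2 and -8.72, so wild-type replicate 1 fell within their range. The second component held 21.5% of the variance. From replicate 1 to replicate 5 it ran -38.9, -22.4, -9.88, 13.8 and -5.24 in the wild type. In the mutant it ran -16.5, 2.855, 11.3, 26.9 and 38.0, rising with the replicate number. Why it rose with the number was not tested.

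**Figure D2:**
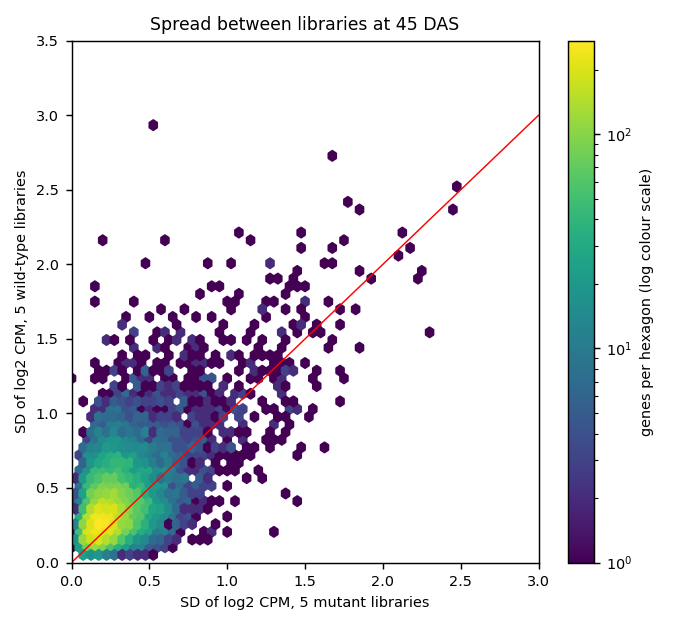
SD of log2 CPM over the 5 mutant libraries (horizontal) and over the 5 wild-type libraries (vertical) for each tested gene, with the red line marking equal spread. Most genes, 70.2%, lie above the line.

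The breakdown of chlorophyll was the most frequently called of the senescence lists. All 16 listed genes were tested: 7 fell, none rose, 11 had an unadjusted p under 0.05, and the median log2FC was -0.86. The called genes cover the first steps on chlorophyll b and a and the fate of the phytol tail. PES1, a plastid phytyl ester synthase (AT1G54570, chromosome 1, 20380435 to 20385380, minus strand), stood at 365, 243, 240.0, 129.98 and 1296 CPM in the wild type and at 35.4, 21.0, 37.6, 19.8 and 27.3 CPM in the mutant. The lowest wild-type library was thus above every mutant library, and the log2FC was -4.02 (SE 0.67, adjusted p 0.0201). PES2, its paralog, fell from 197 ± 108 to 82.2 ± 9.78 CPM (adjusted p 0.0404).

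NYC1, a chlorophyll b reductase, was 721, 757, 513, 480.4 and 1898 CPM in the wild type and 270.4, 220.1, 326, 285 and 307 CPM in the mutant. It fell by 1.64 on the log2 scale (SE 0.35, adjusted p 0.0335), with wild-type replicate 5 far above its group. NYE1, the magnesium dechelatase known as STAY-GREEN, fell from 433 ± 335 to 109 ± 26.4 CPM (adjusted p 0.0468) and its homolog NYE2 from 185 ± 101 to 75.4 ± 8.29 CPM (adjusted p 0.0354). HCAR, which reduces 7-hydroxymethyl chlorophyll a, was 30.7, 36.6, 26.5, 36.2 and 23.3 CPM against 15.6, 15.5, 12.9, 13.7 and 6.81 CPM. Its log2FC was -1.17 (SE 0.21, adjusted p 0.0143), and here wild-type replicate 5 was the lowest of its group. MES16, a methylesterase acting on late chlorophyll catabolites, fell from 68.6 ± 46.2 to 17.7 ± 4.35 CPM (adjusted p 0.031), a call lost without any 1 of the mutant libraries (adjusted p 0.0728 to 0.094).

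Other steps of the pathway were not called. Pheophytinase PPH was 406 to 909.8 CPM in the wild type against 302 to 409 CPM (adjusted p 0.0826) and pheophorbide a oxygenase PAO 257 ± 71.1 against 169 ± 18.0 CPM (adjusted p 0.063). CLH1, a chlorophyllase, had the opposite sign at 66.1 ± 41.3 against 125 ± 52.9 CPM (adjusted p 0.286). With 1 library left out, 1 to 9 of the list's genes fell: 1 without mutant replicate 2, 4 or 5, and 9 without wild-type replicate 4. HCAR was called in each of those fits.

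Some genes of the photosynthetic apparatus rose in the mutant. Of 30 light-harvesting and photosystem genes, all tested, 5 rose and none fell, 23 had an unadjusted p under 0.05, 29 had a positive log2FC and the median was 1.11. PSBQ2, a subunit of the oxygen-evolving complex of photosystem II, was 514, 273, 240.0, 319.9 and 167 CPM in the wild type and 864, 872, 746, 827 and 736 CPM in the mutant. The groups were separate, and the log2FC of 1.42 (SE 0.24, adjusted p 0.0102) was called whichever library was left out. PSBR, also of photosystem II, rose from 2786 ± 968 to 5516 ± 259 CPM (adjusted p 0.0316). PSAE1, a stromal subunit of photosystem I, rose from 271 ± 129 to 598 ± 58.0 CPM (adjusted p 0.03). The photosystem I antenna proteins LHCA2 and LHCA3 rose by 1.31 (SE 0.31, adjusted p 0.0438) and 1.20 (SE 0.29, adjusted p 0.04) on the log2 scale.

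The number of these genes called varied with the libraries and the tool. In LHCA3 the wild-type values were 1836, 880.3, 829, 1147 and 455 CPM, with replicate 1 the closest to the mutant's 2446, 2582, 2081, 2401 and 2333 CPM. Without wild-type replicate 1, 28 of the 30 genes were called higher; without wild-type replicate 2 or 3, or without any 1 of the mutant libraries, 1 was. With all 10 libraries DESeq2 called 16 and limma with a variance per group 19. PSBR and PSAE1 each lost their call without wild-type replicate 2 or 3 or any mutant library (adjusted p 0.0634 to 0.0881). The 14 tested genes of chlorophyll synthesis all had a positive log2FC, with a median of 0.77, and none was called among 8 with an unadjusted p under 0.05. CHLD, a subunit of magnesium chelatase, had the smallest p of them at 23.5 ± 7.38 against 39.5 ± 4.71 CPM (adjusted p 0.0646). The 14 Calvin cycle genes likewise all had a positive log2FC, with a median of 0.60 and none called. RCA, Rubisco activase, was 3334, 1592, 1615, 2258 and 1105 CPM against 3732, 3883, 3789, 3538 and 3715 CPM (adjusted p 0.0589), with no overlap. Without wild-type replicate 1, 11 of the 14 chlorophyll synthesis genes and 12 of the 14 Calvin cycle genes were called higher, and none was without any other single library. With all 10 libraries DESeq2 called 3 chlorophyll synthesis and 2 Calvin cycle genes and limma 2 and 3.

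**Figure D3:**
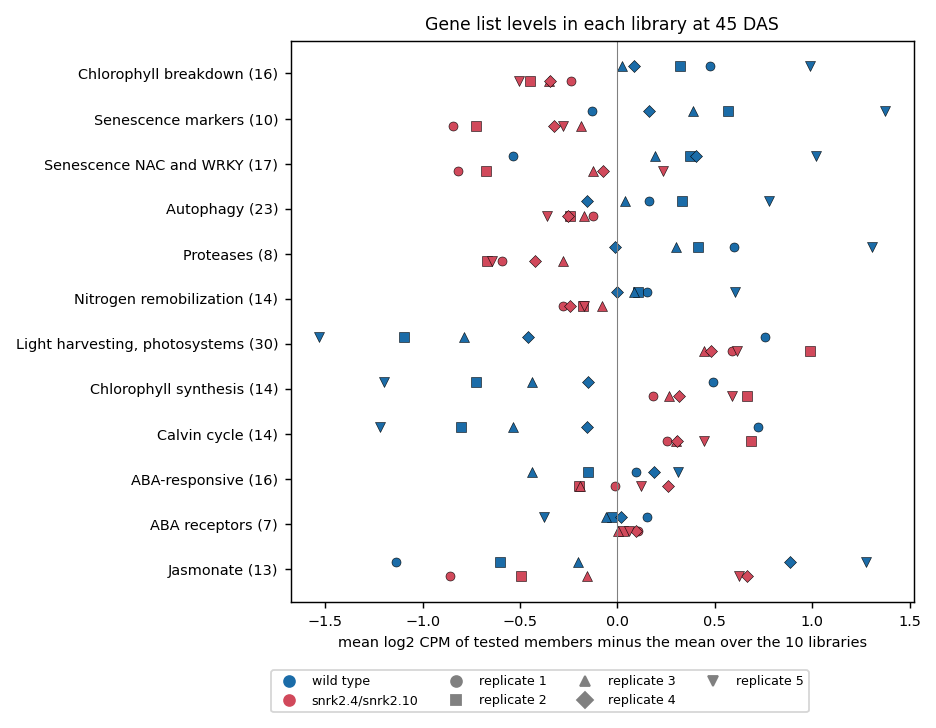
Mean log2 CPM of the tested members of 12 gene lists in each library, minus the mean over the 10 libraries; the number of tested members is in brackets, blue is wild type, red is the mutant and the marker shape gives the replicate. For the light-harvesting and photosystem list wild-type replicate 1 lies at 0.76, within the mutant range of 0.44 to 0.99, and the other wild-type libraries lie between -1.53 and -0.46.

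SAG12, the cysteine protease used as the standard marker of leaf senescence (AT5G45890, chromosome 5, 18613239 to 18614963, plus strand), showed the largest fall. Its level was 3912, 3368, 1118, 1032 and 20784 CPM in the wild type and 53.8, 101, 347, 178 and 100.5 CPM in the mutant. Wild-type replicate 5 was far above the rest, yet the lowest wild-type library still exceeded the highest mutant library. The log2FC was -5.28 (SE 1.05, adjusted p 0.0346), and the call was lost without wild-type replicate 2 or any of the mutant libraries (adjusted p 0.0593 to 0.0955). Of the 10 tested senescence markers, 2 fell and the median log2FC was -0.41. The other was SAUR36, a small auxin-up RNA gene induced in senescing leaves, which went from 64.6 ± 39.9 to 13.1 ± 4.65 CPM (log2FC -2.29, SE 0.43, adjusted p 0.0243). SAUR36 lost its call without wild-type replicate 2 or mutant replicate 1, 2, 4 or 5 (adjusted p 0.0548 to 0.0802), fits in which no marker of the list was called; the count reached 3 without wild-type replicate 1 or 4, and the median ran from -0.60 to -0.15. SAG101, RPK1 and SEN1 differed by less than their spread, with log2FC values of 0.18, -0.05 and -0.12.

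BFN1, the bifunctional nuclease of senescence and cell death, did not pass the count minimum and was not tested. Its values were 131, 73.3, 6.23, 7.91 and 240.5 CPM in the wild type and 0.708, 1.11, 1.07, 3.05 and 5.11 CPM in the mutant. Wild-type replicates 1, 2 and 5 were high, and replicates 3 and 4 lay just above the highest mutant library. The 465 wild-type counts against 11 mutant counts give a depth-adjusted ratio, mutant over wild type, of 0.0177 (95% interval 0.00877 to 0.0319, counting error only).

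Among 17 tested senescence-related NAC and WRKY transcription factors, 1 was called, where 3.41% of all tested genes were. Of the 17, 14 had a negative log2FC, as did 5995 of all 11520 tested genes, and the median was -0.48. WRKY45, a positive regulator of age-triggered senescence, was 33.9, 69.2, 68.6, 45.2 and 80.2 CPM in the wild type and 17.7, 19.9, 18.3, 18.3 and 29.0 CPM in the mutant, without overlap. It fell by 1.56 on the log2 scale (SE 0.24, adjusted p 0.0065) and was called whichever library was left out. NAC055 (AT3G15500) was 217 ± 173 against 37.6 ± 26.3 CPM (adjusted p 0.0634) and WRKY75 188 ± 166 against 45.5 ± 9.13 CPM (adjusted p 0.0737); neither overlapped between groups. The central NAC regulators were not called. NAP was 191, 367, 260.3, 198 and 675 CPM against 159, 113, 171, 121 and 221 CPM (log2FC -1.12, SE 0.35, adjusted p 0.104), and of the fits with 1 library left out it passed in that without wild-type replicate 1 (adjusted p 0.0476). NAC092, known as ORE1, was 170.1 ± 67.3 against 103 ± 23.0 CPM (adjusted p 0.135).

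Recycling genes mostly pointed the same way at smaller size. All 23 tested autophagy genes had a negative log2FC, with a median of -0.40; 3 were called and 11 had an unadjusted p under 0.05. ATG9, the membrane protein of autophagosome formation, was 51.9, 66.1, 42.1, 41.8 and 88.6 CPM against 31.9, 21.0, 25.8, 33.5 and 18.7 CPM, without overlap (log2FC -1.14, SE 0.24, adjusted p 0.0254). ATG7, the activating enzyme of ATG8 conjugation, fell from 51.2 ± 23.3 to 19.1 ± 5.51 CPM (adjusted p 0.0413) and ATG8A from 315 ± 116 to 173 ± 22.0 CPM (adjusted p 0.0453). The groups overlapped for both, through wild-type replicate 4 at 18.1 and 193 CPM, and both lost their call without wild-type replicate 2 or 3 or any mutant library (adjusted p 0.0604 to 0.126), ATG7 also without wild-type replicate 5. With 1 library left out, 0 to 6 autophagy genes were called: 0 without wild-type replicate 2 or mutant replicate 2, 3 or 5, and 6 without wild-type replicate 1 or 4. Of the 8 tested proteases, all with a negative log2FC, only SAG12 was called. RD21A, a vacuolar papain-like protease, was 1806 ± 943 against 929 ± 140.2 CPM (adjusted p 0.0734).

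Of 14 tested nitrogen remobilization genes, 1 was called lower and 1 higher. The log2FC was negative in 11 and positive in 3, with a median of -0.41, and 9 had an unadjusted p under 0.05. NRT1.7, which loads nitrate from old leaves into the phloem, was 261, 319.5, 339.8, 348 and 556 CPM against 153, 151, 191, 176 and 181 CPM. The groups were separate, and NRT1.7 fell 2.15-fold (adjusted p 0.0102), a call held without each library in turn. GDH1, the beta subunit of glutamate dehydrogenase, rose from 29.9 ± 8.39 to 51.9 ± 5.41 CPM (log2FC 0.79, SE 0.18, adjusted p 0.0354), but kept its call only without wild-type replicate 1 or 4 (adjusted p up to 0.0877 in the other fits). The remaining 12 tested genes of the list were not called. Among them GDH2 was 108 ± 78.6 against 40.0 ± 5.05 CPM and the cytosolic glutamine synthetase GLN1;1 4923 ± 1211 against 3033 ± 293 CPM (adjusted p 0.0511). None of the 6 tested nuclease and purine catabolism genes was called; the urate oxidase gene AT2G26230 had the smallest p at 135 ± 37.1 against 85.4 ± 9.26 CPM (adjusted p 0.0525).

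ABA genes were called in the synthesis and release list and in the ABA-responsive list. Over all tested genes 3.41% were called and 20.5% had an unadjusted p under 0.05. In the 7 tested genes of ABA synthesis and release, 1 rose and 6 had an unadjusted p under 0.05, 4 with a positive and 3 with a negative log2FC over the list. The list's median of 0.30 ran from -0.35 to 0.38 over the alternatives run. It moved most under the other low-count filters, thinning and the fit of all 20 libraries, where it was -0.03. BGLU18, a glucosidase that frees ABA from its glucose ester, was 11.7, 3.05, 7.79, 9.04 and 3.73 CPM in the wild type and 29.0, 20.5, 15.0, 35.8 and 23.8 CPM in the mutant, without overlap. Its log2FC was 1.85 (SE 0.35, adjusted p 0.0159), with an adjusted p of 0.0529 without mutant replicate 4. NCED3, the rate-limiting dioxygenase of stress-induced ABA synthesis, was 17.0, 48.8, 31.2, 78.0 and 111 CPM against 4.25, 12.7, 23.6, 45.7 and 68.1 CPM. The groups overlapped widely (log2FC -1.04, SE 0.70, adjusted p 0.463). Each mutant value lay below that of the same-numbered wild-type library, and with the replicate number added to the edgeR fit NCED3 was called (adjusted p 0.0189). AAO3, the aldehyde oxidase of the last step, was 51.9, 41.7, 39.0, 39.6 and 125 CPM against 29.0, 39.8, 34.4, 28.9 and 23.8 CPM (adjusted p 0.137), and ABA4 28.3 ± 6.7 against 44.6 ± 4.06 CPM (adjusted p 0.0585).

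No ABA receptor (7 tested), clade A protein phosphatase 2C (6 tested), ABA-related bZIP factor (5 tested) or ABA catabolism gene (5 tested) was called, with median log2FC values of 0.09, -0.39, 0.01 and 0.40. The receptors had no unadjusted p under 0.05; the phosphatases had 3, the bZIP factors 1 and the catabolism genes 1. ABF1 had the smallest p of the bZIP factors at 82.1 ± 15.3 against 52.8 ± 9.04 CPM (adjusted p 0.0541), passing without wild-type replicate 1 or 5 (adjusted p 0.0152 and 0.0344). Of 16 tested ABA-responsive genes, 1 rose and 1 fell and the median was -0.04. RD22, a dehydration-responsive gene, was 141, 79.4, 46.8, 92.7 and 55.9 CPM against 379, 237, 156, 243 and 149.9 CPM (log2FC 1.49, SE 0.33, adjusted p 0.0386). ATHB7, an ABA-induced homeodomain factor, was 152, 147, 118, 113 and 277 CPM against 81.4, 70.8, 55.9, 88.4 and 97.1 CPM (log2FC -1.05, SE 0.24, adjusted p 0.0378). Neither overlapped between groups, but RD22 kept its call only without wild-type replicate 1, and ATHB7 only without wild-type replicate 1, 4 or 5; the adjusted p rose to 0.0987 and 0.11 in the other fits. RD29A, a widely used reporter gene of ABA and osmotic responses, was 146 ± 26.2 against 109 ± 24.9 CPM (adjusted p 0.184).

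The 12 largest rises were taken among called genes at a mean of 10 CPM or more and without overlap. At the top stood AT1G64795 (chromosome 1, 24082579 to 24082848, plus strand), with 1.06, 0, 1.56, 0 and 0.932 CPM in the wild type and 80.0, 62.5, 58.0, 59.4 and 71.5 CPM in the mutant. With 3 counts over the wild type and 400 over the mutant, the depth-adjusted count ratio was 99.7 (95% interval 33.9 to 486, counting error only). It overlaps AT1G64790 on the opposite strand, and the use of strand in counting is not given in the sources used here. NCED4, a carotenoid cleavage dioxygenase also known as CCD4 (AT4G19170), was 180.2, 118, 98.2, 153 and 48.5 CPM against 769, 570.1, 518, 553 and 463 CPM. The other 11 rises lay between 1.74 and 2.27 in log2. NCED4 rose by 2.27 (SE 0.29, adjusted p 0.00373), every mutant library above every wild-type library.

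FBA5, a fructose-bisphosphate aldolase, rose from 9.15 ± 5.66 to 40.8 ± 5.36 CPM, the MADS-box gene AGL42 from 3.89 ± 1.59 to 16.5 ± 4.93 CPM, and the pectin methylesterase gene PME1 from 10.9 ± 4.86 to 44.6 ± 18.3 CPM. Their adjusted p were 0.00373, 0.00776 and 0.0109. TSA1, a protein of endoplasmic reticulum bodies, rose from 4.27 ± 2.62 to 18.7 ± 5.88 CPM, and the plastid-encoded ATCG00110 from 14.1 ± 5.8 to 50.0 ± 10.02 CPM. AT4G23670, AT3G48200 and AT4G14740 rose by 1.78, 1.91 and 1.93 in log2, and BGLU18, described above, also belongs here. All of these calls, bar that of BGLU18, held without each library in turn; AT1G75945, with a rise of 1.74, lost its call in 7 of the 10 fits (adjusted p 0.0646 to 0.102), keeping it without wild-type replicate 1, 2 or 5.

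The 12 largest falls, taken under the same limits as the rises, lay between -5.28 and -2.94 in log2 and began with SAG12, SNRK2.4 and PES1. CCD8, a dioxygenase of strigolactone synthesis, was 92.2, 140.4, 77.9, 54.3 and 379 CPM in the wild type and 12.03, 7.74, 20.4, 11.4 and 6.81 CPM in the mutant (log2FC -3.68, SE 0.62, adjusted p 0.0201). NIT2, a nitrilase, fell from 233 ± 169.6 to 31.0 ± 13.3 CPM (adjusted p 0.018) and MT1C, a metallothionein, from 96.5 ± 74.5 to 12.6 ± 2.76 CPM (adjusted p 0.03). The other 6, AT1G80165, AT5G40690, AT4G16640, AT1G62760, AT1G05340 and AT2G32190, fell by 3.02 to 3.87 in log2. Wild-type replicate 5 held the highest value of its group in 10 of these 12 genes, and MT1C and SNRK2.4 were the exceptions. Over all 218 genes that fell, wild-type replicate 5 was the highest of its group in 173 and replicate 4 the lowest in 107. Over the 175 that rose, wild-type replicate 1 was the highest of its group in 112 and replicate 5 the lowest in 114. Apart from SNRK2.4, each of the 12 falls lost its call in at least 2 of the 10 fits with 1 library left out, most often without a mutant library or wild-type replicate 2 (adjusted p 0.0513 to 0.119).

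**Figure D4:**
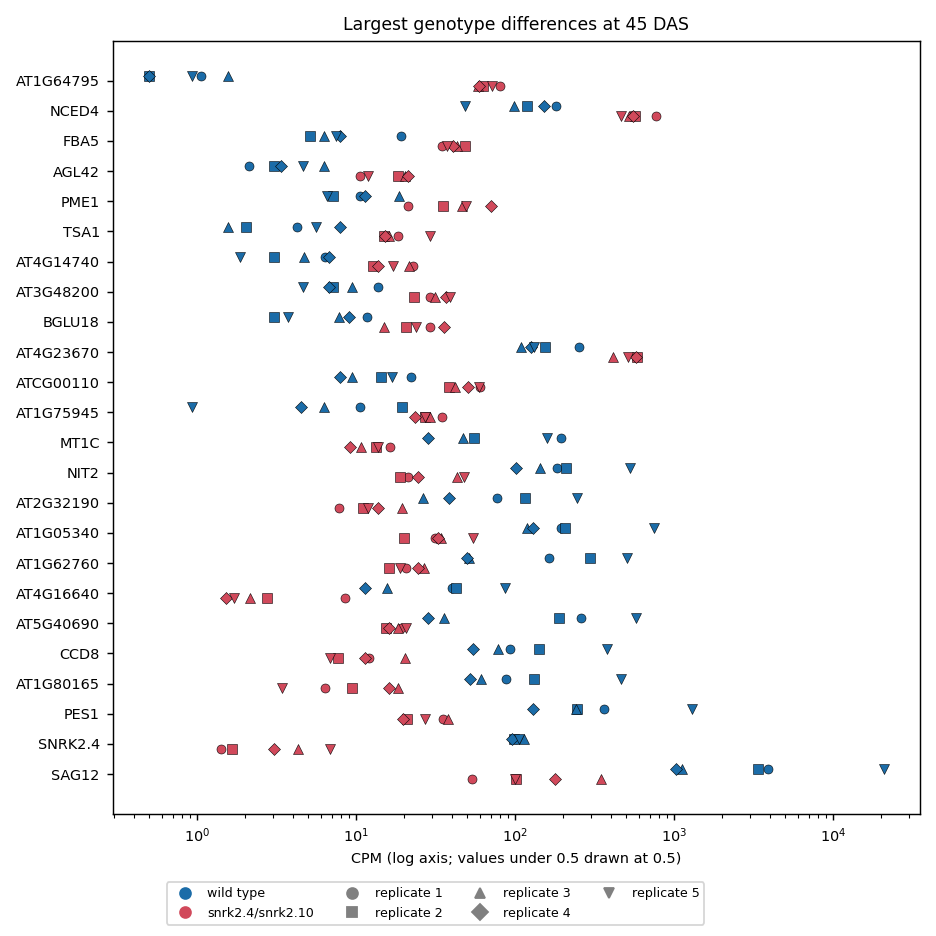
CPM in each library, on a log axis, of the 12 genes with the largest rise and the 12 with the largest fall; blue is wild type, red is the mutant and the marker shape gives the replicate. The genes were taken among called genes at a mean of 10 CPM or more without overlap between groups, so none shown overlaps. SAG12 runs from 1032 to 20784 CPM over the wild-type libraries and from 53.8 to 347 CPM over the mutant ones.

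Promoter sequence is shown for the largest 2 falls and 2 rises whose gene has a symbol and overlaps no other locus, so that a reader can search it beside the values above. Each window runs from 250 bases before to 49 after the annotated start (300 bases, TAIR10.1, 5' to 3' on the gene's strand). Capitals mark matches on either strand to the G-box CACGTG, the ABRE core ACGTGNC or the W-box core TTGAC; the G-box and ABRE core can share bases.
SAG12 promoter, chr5:18612989-18613288, plus strand: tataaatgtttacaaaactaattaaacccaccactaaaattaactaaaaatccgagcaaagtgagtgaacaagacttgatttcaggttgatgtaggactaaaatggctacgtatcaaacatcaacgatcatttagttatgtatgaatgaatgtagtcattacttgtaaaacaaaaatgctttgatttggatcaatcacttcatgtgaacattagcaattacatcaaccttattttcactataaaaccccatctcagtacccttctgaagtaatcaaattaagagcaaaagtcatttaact
PES1 promoter, chr1:20385331-20385630, minus strand: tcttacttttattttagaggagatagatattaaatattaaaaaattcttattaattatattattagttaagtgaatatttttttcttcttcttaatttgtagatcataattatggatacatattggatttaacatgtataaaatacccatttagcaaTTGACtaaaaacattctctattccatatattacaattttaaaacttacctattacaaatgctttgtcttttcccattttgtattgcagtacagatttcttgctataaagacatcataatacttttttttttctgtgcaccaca
NCED4 promoter, chr4:10481369-10481668, plus strand: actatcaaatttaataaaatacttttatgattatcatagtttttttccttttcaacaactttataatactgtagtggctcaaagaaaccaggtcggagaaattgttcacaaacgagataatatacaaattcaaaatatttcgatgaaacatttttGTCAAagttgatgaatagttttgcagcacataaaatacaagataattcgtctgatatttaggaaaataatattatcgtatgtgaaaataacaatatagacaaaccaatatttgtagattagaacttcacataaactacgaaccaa
AGL42 promoter, chr5:24964396-24964695, plus strand: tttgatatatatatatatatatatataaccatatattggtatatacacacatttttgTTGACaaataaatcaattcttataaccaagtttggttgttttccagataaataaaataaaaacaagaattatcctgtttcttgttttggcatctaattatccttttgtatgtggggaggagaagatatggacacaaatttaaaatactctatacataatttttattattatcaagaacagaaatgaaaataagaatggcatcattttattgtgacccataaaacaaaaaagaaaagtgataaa
The windows of PES1, NCED4 and AGL42 hold 1 W-box core each, and none of the 4 holds a G-box or ABRE core. Over same-length windows of 11316 tested protein-coding genes, 9.6% hold a G-box, 12.6% an ABRE core and 51.6% a W-box core. Among the 214 such genes that fell the shares are 15.9%, 17.8% and 56.1%, and among the 166 that rose 13.9%, 16.9% and 47.6%. These shares are descriptions, with no test.

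Other hormone and metabolic lists held at most 1 call each, where 3.41% of all tested genes were called. None of the tested genes of salicylic acid and defence (13), jasmonate (13), ethylene (13), cytokinin (5), sugar transport (9), flavonoid synthesis (10) or antioxidant enzymes (7) was called, with 2, 0, 3, 2, 1, 2 and 2 unadjusted p under 0.05. Their median log2FC values were -0.08, -0.28, -0.04, -0.09, -0.06, -0.20 and 0.20, and all of these but that of the antioxidant list took both signs over the alternatives run. The smallest p of each belonged to PR5, LOX2, EIL1, ARR16, STP13, PAP2 and CAT2, in that order. PR5, an acidic pathogenesis-related protein, was 32.9, 128, 45.2, 44.1 and 69.9 CPM against 228, 262, 208, 117 and 102 CPM (log2FC 1.52, SE 0.40, adjusted p 0.0643), and passed without wild-type replicate 2 (adjusted p 0.0258). Of 11 tested dark-inducible and starvation genes, DIN10, a raffinose synthase family gene, fell from 44.2 ± 21.0 to 14.0 ± 5.67 CPM (adjusted p 0.0307), a call lost without wild-type replicate 2 or 3 or any mutant library (adjusted p 0.0512 to 0.0967). Of 9 tested clock genes, LUX, a component of the evening complex, fell from 16.5 ± 2.43 to 4.6 ± 2.75 CPM without overlap (log2FC -1.78, SE 0.31, adjusted p 0.0109), with the other 8 not called. The hour of harvest is not given in the sources used here.

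No tested guard-cell, phloem or root marker was called (4, 4 and 1 tested). The guard-cell marker KAT1 was 33.3 ± 12.8 against 16.7 ± 3.94 CPM (adjusted p 0.0596), while the other 3 had a positive log2FC. The phloem marker PP2-A1 was 396 ± 18.3 against 491 ± 24.1 CPM, without overlap (adjusted p 0.146). Of the 4 tested phloem markers, 2 had a positive and 2 a negative log2FC. The summed CPM of 5 phloem markers ran from 744 to 888 over the wild-type libraries and from 795 to 952 over the mutant ones, and that of 5 guard-cell markers from 58.8 to 95.7 and from 68.1 to 76.2. The 6 root markers summed to 8.48 to 16.3 CPM and 13.6 to 22.1 CPM, with RHD6, COBL9 and TIP2;3 at 0. The 6 xylem markers summed to at most 3.18 and 6.08 CPM, with CESA4 at 0, and 6 floral markers to at most 12.5 and 13.7 CPM, with LFY and AP1 at 0. Epidermal and trichome markers summed to 45.7 to 83.7 CPM in the wild type and 86.9 to 117 CPM in the mutant. Most of this sum was the wax exporter CER5 in every library. Of the 6 markers, 2 were tested, and CER5 rose from 50.5 ± 10.4 to 79.7 ± 7.94 CPM (adjusted p 0.0354). The call was lost in 7 of the 10 fits with 1 library left out (adjusted p 0.0523 to 0.0897). These were the fits without wild-type replicate 2 or 4 or any mutant library. GL1, of that list, was at 0. The part of the epidermal markers in the results was not tested. Plastid-encoded loci took 2.22% ± 0.73 of counts in the wild type and 3.05% ± 0.48 in the mutant (SD, n = 5 each; exact two-sided permutation test, p 0.0635). Mitochondrial loci took 0.193% ± 0.156 and 0.0898% ± 0.0254 (exact p 0.0556; both adjusted over 2 tests to 0.0635). Wild-type replicate 1 had the highest plastid share of its group, 3.36%; without it the difference in plastid share had an exact p of 0.0159 and that in mitochondrial share 0.03175. Without wild-type replicate 4 the mitochondrial difference had an exact p of 0.0159. Over the other single omissions the exact p ran up to 0.135 for plastid and 0.222 for mitochondrial share, and without wild-type replicate 3 the mitochondrial difference shrank from -0.103 to -0.034 percentage points (exact p 0.0952).

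The genes that varied most between wild-type libraries included several that varied in a like way in both genotypes. WRKY40, a stress-induced transcription factor, was 10.6, 132, 232, 533 and 806 CPM in the wild type and 27.6, 115, 260.0, 628 and 565 CPM in the mutant. RRTF1, ORA47, AT4G29780, AT5G52050, AT2G23270 and LOX4, a jasmonate-producing lipoxygenase, shared the low value in replicate 1 of both genotypes and higher values in replicates 4 and 5. None of these genes was called.

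In DOX1 and GLYI4 the pattern differed between genotypes. DOX1, an alpha-dioxygenase, was 352, 238, 20.3, 2.26 and 456 CPM in the wild type and 9.2, 13.8, 27.9, 17.5 and 13.6 CPM in the mutant. GLYI4, of the glyoxalase I family, was 259.7, 195, 17.1, 12.4 and 356 CPM against 7.08, 4.98, 10.7, 9.14 and 46.0 CPM. For both, wild-type replicates 1, 2 and 5 were high and replicates 3 and 4 lay in or near the mutant range, which matches the pattern of BFN1. The plastid-encoded ATCG00630 was highest in replicate 1 of both genotypes, at 4842 CPM in the wild type and 1407 CPM in the mutant. It stood at 36.4 to 134 CPM in the other wild-type libraries and 114 to 879 CPM in the other mutant libraries.

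**Figure D5:**
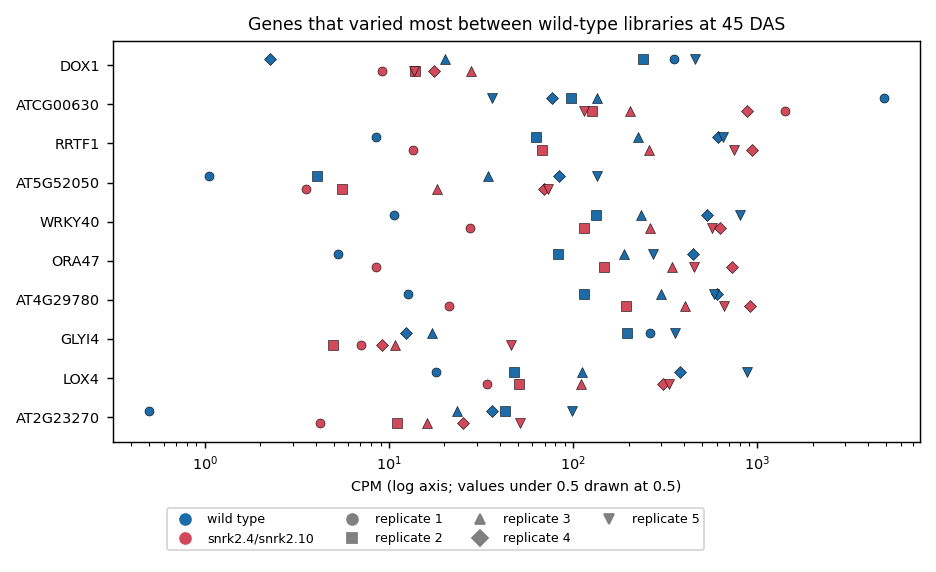
CPM in each library, on a log axis, of the 10 genes with the largest SD of log2 CPM among the wild-type libraries; blue is wild type, red is the mutant and the marker shape gives the replicate. WRKY40 runs from 10.6 to 806 CPM over the wild-type libraries and from 27.6 to 628 CPM over the mutant ones, and DOX1 from 2.26 to 456 and from 9.2 to 27.9 CPM.

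Whether the genotype difference itself changed with age was tested in a fit of all 20 libraries, in which 465 of 14503 genes (3.21%) had a genotype by age interaction. Of the 67 genes named here for their genotype difference or their list and tested in that fit, 23 passed. Many of the 67 were picked for their difference at 45 DAS, which is part of the interaction. The share that passed therefore cannot be set against that of all genes. PSBQ2 was 2882 ± 63.8 against 2655 ± 120.7 CPM at 25 DAS and 235 ± 99.5 against 627 ± 49.9 CPM at 45 DAS (scaled over 20 libraries), with an interaction of 1.54 in log2 (adjusted p 0.0022). FBA5, NCED4 and AT4G23670 had interactions of 2.19, 1.58 and 1.40 (adjusted p 0.000118, 0.0221 and 0.00132) and were not called at 25 DAS. For GDH1 the direction differed by age: 107 ± 12.8 against 48.2 ± 15.2 CPM at 25 DAS and 23.3 ± 6.55 against 40.2 ± 4.23 CPM at 45 DAS (interaction 1.91, adjusted p 0.000198). AT1G64795, BGLU18 and WRKY45 did not pass that test (adjusted p 0.539, 0.501 and 0.338).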

How the data were processed

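The data are 3' RNA-seq count tables, 1 per library, and the deposited values are raw whole-number counts per locus. Per the submitters' processing notes, STAR 2.7.8a and the TAIR10 genome were used by the authors; the counting tool, the annotation, the use of strand and the collapsing of molecular identifiers are not given in the sources used here. Names and coordinates come from RefSeq's TAIR10.1 annotation, which matched 37051 of 37336 loci (99.2%).

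The 10 libraries at 45 DAS were fitted alone with edgeR 4.0.16 in R 4.3.3 (filterByExpr by group, TMM, robust quasi-likelihood test, Benjamini-Hochberg adjustment over all tested genes); the interaction used all 20. Log2 CPM used a prior count of 2. Organelle shares were compared with exact permutation tests. On simulated data of 11520 genes for this comparison, 48 of 100 2-fold and 90 of 100 4-fold changes were recovered, and 2 of 140 calls were false. The simulation gave all genes of a group the same spread and drew libraries independently, with no library set apart. The real libraries differ in this, so these shares cannot be carried over to the reported calls. Alternatives were DESeq2 1.42.0, limma 3.58.1, other scalings and filters, thinning, each library left out, and a replicate block. No 2 libraries of a group agreed within sampling noise.

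The comparison and the gene lists were chosen with earlier results of these data known. Genes were named by rule: the 12 largest changes each way, the 3 smallest p among called members of each list (1 where none was called), 9 genes always, and the 10 genes most variable in the wild type. SNRK2.2, SNRK2.3, SNRK2.6, PES2, NYC1, NYE1, NYE2, PPH, PAO, CLH1, LHCA2, LHCA3, SAG101, RPK1, SEN1, NAC055, WRKY75, RD21A, GDH2, GLN1;1 and ABA4 were named after their values were seen. Of 77 genes named by rule, 25 overlap another annotated locus, so their counts are uncertain, among them SNRK2.4, SNRK2.8, FBA5, PSAE1, PSBR, RCA, ATG8A, CCD8 and AT1G80165. Some antenna genes belong to near-identical families, whose reads may be split between copies. Total counts of 615317 to 1827404 per library limit precision for low genes, and intervals cover counting error only.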

Additional observations from a re-analysis of the deposited data

Results flagged for a closer look

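In 8 of 222 groups of 5 library values checked (3.6%, where chance gives about 1 in 20), 1 library stood apart from its group, with a gap to its neighbour above 0.71 of the group's range. These were mutant replicate 1 for AT4G16640 (0.721), mutant replicate 5 for WRKY45 (0.765), HCAR (0.761) and the dark-inducible list (0.716), wild-type replicate 5 for AAO3 (0.757) and the nitrogen remobilization list (0.746), wild-type replicate 1 for ATCG00630 (0.738), and wild-type replicate 3 for the mitochondrial share of counts (0.856).

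For 23 of 67 genes the genotype difference itself differed between 45 and 25 DAS in edgeR's interaction test over all 20 libraries. Many of the 67 were picked for their difference at 45 DAS, which favours passing. Values are log2, with a positive sign where the mutant stood relatively higher at 45 DAS. Positive interactions were found for FBA5 (2.19, adjusted p 0.000118), PME1 (1.95, 0.00431), GDH1 (1.91, 0.000198), NCED4 (1.58, 0.0221), PSBQ2 (1.54, 0.0022), AT3G48200 (1.52, 0.00431), AT4G14740 (1.45, 0.0221), RD22 (1.41, 0.0285), AT4G23670 (1.40, 0.00132), PSAE1 (1.23, 0.0165) and PSBR (0.994, 0.0395).

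Negative interactions were found for PES1 (-5.20, adjusted p 0.016), MT1C (-2.66, 0.0414), MES16 (-2.34, 0.00842), SNRK2.4 (-2.18, 0.00969), KAT1 (-1.70, 0.00786), ATG7 (-1.66, 0.0374), ATHB7 (-1.66, 0.0473), LUX (-1.56, 0.0456), HCAR (-1.21, 0.016), HAB1 (-1.05, 0.0165) and SNRK2.10 (-0.859, 0.0156). SAG12 had a fitted interaction of -11.6 (adjusted p 0.0021), a value that depends on the prior count because the wild type gave 2 counts at 25 DAS against 195 in the mutant. SNRK2.4 was low in the mutant at both ages, with 31 counts (4.93 CPM) at 25 DAS and 17 counts (2.67 CPM) at 45 DAS. In the wild type it went from 37.3 to 80.0 CPM. The SNRK2.4 interaction therefore does not show a deeper loss in the mutant with age.

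Of the 23 interactions, 12 passed in every alternative run. LUX was lost in 9 of 13 alternatives, ATHB7 and PSBR in 8 of 14, ATG7 and MT1C in 7 of 14 and RD22 in 5 of 14, with adjusted p up to 0.107, 0.684, 0.0837, 0.204, 0.344 and 0.068 in that order. The other 5, AT4G14740, SNRK2.10, HAB1, HCAR and PES1, were lost in 1 or 2.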

How the results depend on the processing

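Counts of calls depended more on which libraries entered than on scaling. Against 393 genes (175 higher, 218 lower), DESeq2 called 770 (342 and 428), limma with a variance per group 278 higher, and a fit of all 20 libraries 1440 (732 and 708). Leaving out 1 library gave 82 to 1317 genes, 39 to 752 higher and 43 to 565 lower. Leaving out wild-type replicates 1 and 5 together, chosen after seeing the data, gave 959 (573 and 386). The cause was not tested. DESeq2 size factors, upper-quartile scaling, other low-count filters, thinning and leaving out organelle loci gave 293 to 531. The difference in plastid share ran from 0.613 to 1.11 percentage points and that in mitochondrial share from -0.13 to -0.034 with 1 library left out.

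Same-numbered libraries correlated at 0.0516 to 0.467 in their deviations from the group means, above 0.1 in 3 of 5 pairs, and 2 of 5 wild-type and 1 of 5 mutant libraries correlated best with their own number. The labels do not say that a number marks a shared plant or day, and not every pair passed 0.1, so the numbers were not used to pair libraries in the reported fit; some genes did vary alike by number, such as WRKY40. With a replicate block 801 genes were called (393 and 408), including 378 of the 393, and NCED3 (adjusted p 0.0189) and NAP (adjusted p 0.0211), not called without it; DESeq2 also called NAP (adjusted p 0.038). Genes named only for their spread in the wild type, BFN1 and the genes named after their values were seen were not followed singly under the alternatives. No other named gene and no interaction changed sign under the alternatives run. Of 31 list medians, 12 took both signs. They were those of ABA synthesis and release, ABA bZIP, ABA-responsive, salicylic acid, jasmonate, ethylene, cytokinin, sugar transport, flavonoid, clock, decapping and phloem genes. Calls were mostly lower in the mutant as reported and mostly higher without wild-type replicate 1. Of 43 genes named by rule and past the threshold, 18 held their call without each library in turn. Depth limits low genes, since 3 counts are 1.66 to 5.11 CPM.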

Other observations

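Some genes that did not pass the count minimum nevertheless differed in summed counts, and those given here were chosen after their values were seen. HAI1, a phosphatase of ABA signalling, gave 125 counts in the wild type and 13 in the mutant, DIN2, a dark-inducible glucosidase, 452 and 13, and NCED2, of the ABA synthesis family, 42 and 0. No test was made on them, and the sums do not show how the counts were shared between the libraries of a group.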
